A study of Mus musculus with 10 samples.

Results

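Bone and dentin mineralization genes were followed in mouse first molar tooth germs between the bud and the cap stage. The set held 10 of the 27528 genes measured: Spp1, Ibsp, Dmp1, Mepe, Dspp, Alpl, Phex, Runx2, Sp7 and Bglap. They were taken from the table by their Ensembl gene identifiers, and they were chosen with the difference between the stages already known. Their stage differences are therefore given as a description, with no p-value for a single gene. Calls of the fit across all genes are counted for them, and nothing is read from the counts. The study's tables pair 6 of the 10 symbols with the same identifiers. The other 4 identifiers, those of Ibsp, Mepe, Phex and Sp7, came only from the definition of the set.

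RNA was extracted from germs of NMRI mice, an outbred laboratory stock that carried no mutation or treatment here. Germs of the bud stage (embryonic day E13.5) and of the cap stage (E14.5) were compared, with 12 to 18 germs pooled for each sample and 5 samples at each stage. Each sample was read on an Affymetrix Mouse Exon 1.0 array, which carries probes along the exons of a gene and reads a single biotin-labelled sample. At either stage the samples are numbered 1, 2, 4, 5 and 6. Dissection left a small amount of neighbouring tissue on the germs so as not to damage them, and cells of the jaw may be included. In these values such cells cannot be told apart from cells of the germ. Signals were read as log2 values, and a difference of 1 is a doubling of signal. The array medians lay between 5.06 and 5.22, and the number of arrays limits the precision.

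Bone and dentin are made by related cells, osteoblasts and odontoblasts, which secrete a collagen scaffold and then load it with calcium phosphate. Acidic glycoproteins that bind integrins and crystal surfaces (Spp1, Ibsp, Dmp1, Mepe and Dspp) steer the growth of the mineral, while enzymes at the cell surface (Alpl and Phex) control the local supply of phosphate and of peptides that block mineral. The transcription factors Runx2 and Sp7 set up the osteoblast lineage. Mouse molars lay down dentin only around birth, long after both stages sampled, whereas Runx2 is already known in the dental mesenchyme of the bud.

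The 5 acidic glycoprotein genes are neighbours on chromosome 5, in the reference order Dspp, Dmp1, Ibsp, Mepe and Spp1, with Sparcl1 before and Pkd2 after them. RefSeq promoter sequences (build GRCm38.p6) were listed for 8 of the 10 genes, all but Dspp and Sp7. Shown here are the 250 bases before the start of Spp1 (chr5:104434861-104435110) and Ibsp (chr5:104299037-104299286), the cluster genes with higher signal at E14.5. Below them stand the 125 bases before the start of Dmp1 (chr5:104197450-104197574) and Mepe (chr5:104325204-104325328), the cluster genes without such a difference. All 4 lie on the plus strand and are written 5′ to 3′. Capitals mark the CCAAT box (CCAAT or, on the other strand, ATTGG) and the core letters bound by RUNX factors (ACCACA or TGTGGT).
Spp1: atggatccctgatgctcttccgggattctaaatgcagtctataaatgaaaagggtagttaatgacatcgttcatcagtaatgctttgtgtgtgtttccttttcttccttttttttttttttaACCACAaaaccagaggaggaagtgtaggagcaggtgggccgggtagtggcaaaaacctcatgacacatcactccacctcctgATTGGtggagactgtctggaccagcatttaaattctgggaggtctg
Ibsp: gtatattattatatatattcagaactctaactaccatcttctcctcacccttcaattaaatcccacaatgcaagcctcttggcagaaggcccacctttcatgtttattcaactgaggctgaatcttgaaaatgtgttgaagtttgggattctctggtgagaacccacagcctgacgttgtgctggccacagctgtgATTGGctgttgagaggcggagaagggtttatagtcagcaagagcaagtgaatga
Dmp1: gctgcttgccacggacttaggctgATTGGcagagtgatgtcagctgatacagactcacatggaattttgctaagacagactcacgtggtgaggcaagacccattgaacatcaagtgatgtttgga
Mepe: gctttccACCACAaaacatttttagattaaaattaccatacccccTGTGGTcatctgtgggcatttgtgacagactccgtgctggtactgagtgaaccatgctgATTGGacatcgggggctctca

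A CCAAT box lay in each of these 4 promoters, with its first base 46 bases before the start in Spp1, 54 in Ibsp, 101 in Dmp1 and 21 in Mepe. In all 4 it was part of the longer run TGATTGG, the reverse complement of CCAATCA, a string that was picked after the sequences had been seen and that always contains the CCAAT box. Within 250 bases of the start, the short box was found in 5 of the 8 promoters of the set and in 33.8% of 32851 mouse promoters. The longer run was found in 4 of the 8 and in 7.23% of all promoters. The RUNX letters stood 128 bases before the start of Spp1 and 118 and 80 bases before that of Mepe, and also in the promoters of Runx2 (80 bases before) and Bglap (132 bases before). They were found in 4 of the 8 promoters of the set against 14% of all promoters, and these letters were not in the Ibsp window. Genes with and without a stage difference thus shared both motifs, and a match to letters is a description of the sequence. Where a gene had several listed starts, the start nearest to the edge of the gene was used. The listed start of Runx2 lay 170 bases from that edge.

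Spp1 and Ibsp, whose products osteopontin and bone sialoprotein are secreted into mineralizing matrix, had the highest increases of the set. On the E13.5 arrays of replicates 1, 2, 4, 5 and 6 the Spp1 signal (ENSMUSG00000029304) was 3.98, 4.17, 4.10, 4.14 and 3.95, and on the E14.5 arrays, in the same order, it was 5.69, 6.17, 6.05, 6.46 and 5.42. All arrays of the cap stage lay above all arrays of the bud stage, and the E14.5 arrays were the more scattered. The mean went from 4.07 ± 0.10 (SD, n = 5) to 5.96 ± 0.41 (SD, n = 5), a log2 difference of 1.89 ± 0.16 (SE) and 3.70-fold on the linear scale. Among the 27528 genes, the mean Spp1 signal stood at percentile 25.6 at E13.5 and at percentile 65.4 at E14.5. Such a percentile depends on how well the probes of a gene bind, so it is read within a gene and not between genes. In these bulk samples, fewer cells of a type and less RNA per cell cannot be told apart.

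Ibsp (ENSMUSG00000029306), which nucleates calcium phosphate crystals, gave 5.85, 3.91, 4.08, 3.64 and 3.60 on the E13.5 arrays and 7.07, 7.22, 6.97, 6.50 and 7.68 on the E14.5 arrays. The stages did not overlap, but replicate 1 of E13.5 stood 1.77 above the next array of its stage. The mean went from 4.22 ± 0.93 (SD, n = 5) to 7.09 ± 0.43 (SD, n = 5), a log2 difference of 2.87 ± 0.39 (SE), or 7.31-fold. Without the E13.5 array of replicate 1, the difference was 3.28 ± 0.20 (SE), or 9.70-fold. The mean moved from percentile 29.3 to percentile 84.6 of all genes. At E14.5 the arrays ordered differently for these genes. The replicate 5 array was the highest for Spp1 and the lowest for Ibsp, and the replicate 6 array was the lowest for Spp1 and the highest for Ibsp.

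The other 3 glycoproteins of the cluster, which mark later odontoblasts and bone-embedded osteocytes, differed little between the stages. Dmp1 (ENSMUSG00000029307), a phosphoprotein of osteocytes and young odontoblasts, gave 4.31, 4.46, 4.38, 4.49 and 3.99 at E13.5 and 4.16, 4.58, 4.94, 4.47 and 4.41 at E14.5, a difference of 0.19 ± 0.14 (SE). Mepe (ENSMUSG00000053863), the precursor of a peptide that inhibits mineralization, gave 4.62, 4.53, 4.64, 4.57 and 4.34 at E13.5 and 4.33, 4.65, 4.51, 4.29 and 4.30 at E14.5, a difference of -0.12 ± 0.09 (SE). The stages overlapped for both genes.

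Dspp (ENSMUSG00000053268), which encodes the main non-collagen proteins of dentin and is the defining odontoblast gene, gave 4.25, 4.25, 4.13, 4.29 and 4.08 at E13.5 and 4.05, 4.20, 4.29, 4.22 and 4.11 at E14.5. Its difference was -0.03 ± 0.07 (SE), the smallest of the set, and its mean stood at percentile 28.9 and then 28.0 of all genes. Dmp1 stood at percentile 31.8 and then 36.2, and Mepe at 36.9 and then 34.0. Detection calls were not used here, so whether these 3 transcripts were present could not be read from their signals, and the label of the set as dentin genes rests on known roles. The same limit holds for Spp1 and Ibsp at E13.5 (means 4.07 and 4.22) and for Phex at E14.5 (mean 4.54). Whether the lower end of their fold differences lay above background was not examined. Pkd2, the next gene after Spp1 and the gene of a cation channel of primary cilia, fell from 7.42 ± 0.18 to 7.06 ± 0.09 (SD, n = 5 each), by limma a log2 difference of -0.37 ± 0.09 (SE, adjusted p = 0.0257). The call for Pkd2 was lost under quantile normalization and on leaving out the E13.5 array of replicate 5 or the E14.5 array of replicate 2, 5 or 6, with adjusted p up to 0.0784.

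**Figure D1:**
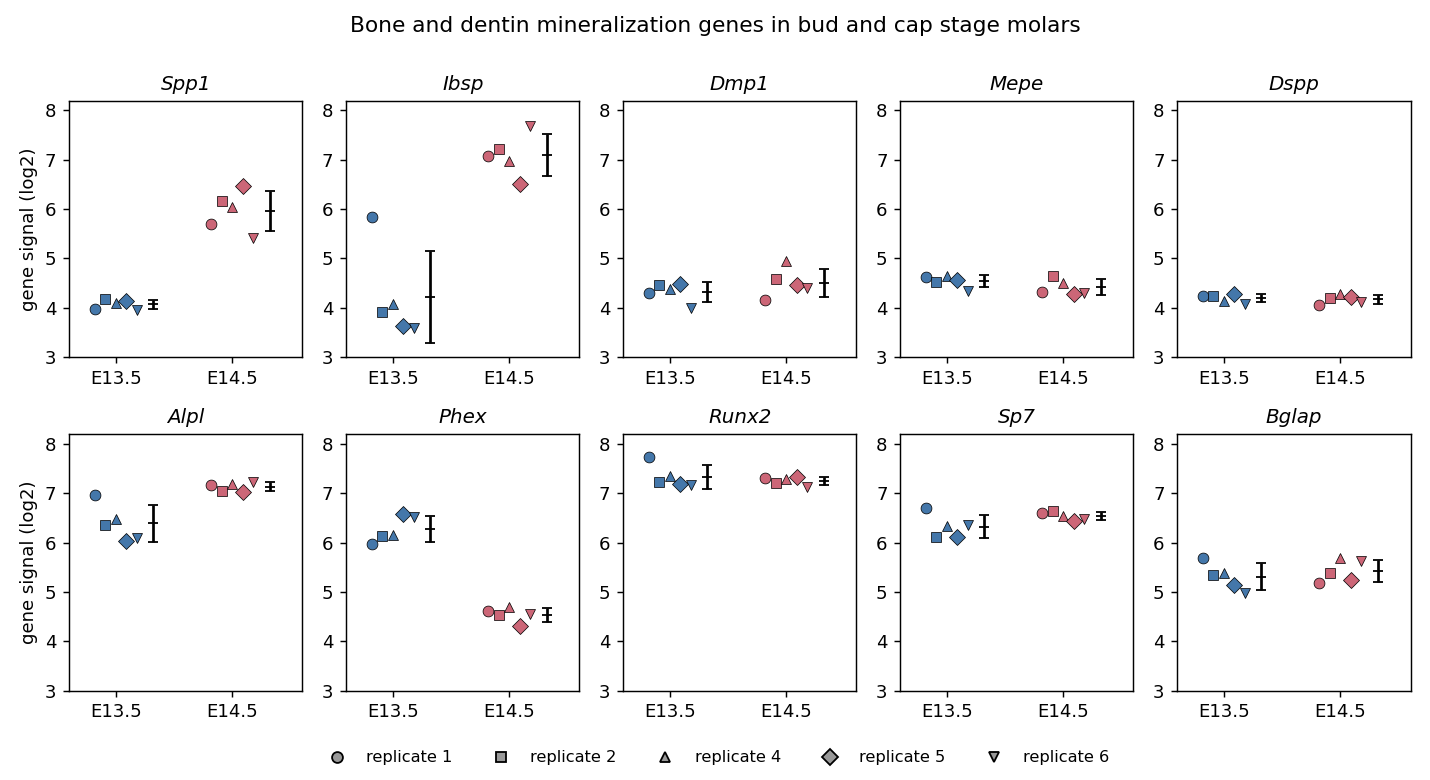
Signal of each mineralization gene (log2, vertical axis) on the 5 arrays of E13.5 (blue) and of E14.5 (red), with symbols for the replicate numbers and black bars for the mean ± SD. Spp1, Ibsp and Alpl lie higher and Phex lower on all E14.5 arrays than on any E13.5 array, the stages overlap for the other 6 genes, and the Ibsp point at 5.85 is replicate 1 of E13.5.

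The 2 enzyme genes moved in opposite directions. Alpl (ENSMUSG00000028766), the tissue-nonspecific alkaline phosphatase that breaks down the mineral inhibitor pyrophosphate, gave 6.96, 6.36, 6.48, 6.04 and 6.10 at E13.5 and 7.17, 7.05, 7.19, 7.03 and 7.23 at E14.5. The E14.5 arrays were tightly grouped above all E13.5 arrays, and the E13.5 array of replicate 1 came within a short distance of them. The mean went from 6.39 ± 0.37 to 7.13 ± 0.09 (SD, n = 5 each), a log2 difference of 0.74 ± 0.15 (SE), or 1.68-fold, and of 0.89 ± 0.10 (SE) without that array.

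Phex (ENSMUSG00000057457), a membrane endopeptidase of osteoblasts and odontoblasts whose loss causes X-linked hypophosphatemia, was the only gene of the set whose E14.5 arrays all lay below those of E13.5. It gave 5.98, 6.14, 6.16, 6.57 and 6.52 at E13.5 and 4.61, 4.53, 4.69, 4.31 and 4.56 at E14.5. The mean went from 6.27 ± 0.26 to 4.54 ± 0.14 (SD, n = 5 each), so the signal was 3.32-fold lower, a log2 difference of -1.73 ± 0.12 (SE). Its place among all genes went from percentile 70.6 to percentile 37.0. Phex thus had its higher signal in the bud, while Spp1, Ibsp and Alpl had theirs in the cap.

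Runx2 and Sp7, the transcription factors of the osteoblast lineage, differed little between the stages. Runx2 (ENSMUSG00000039153), without which no bone forms and molars arrest, gave 7.73, 7.22, 7.35, 7.19 and 7.16 at E13.5 and 7.31, 7.20, 7.28, 7.32 and 7.13 at E14.5, a difference of -0.09 ± 0.10 (SE). Its mean stood at percentile 87.5 and then 86.8 of all genes. Sp7 (ENSMUSG00000060284), also called osterix and needed after Runx2 for osteoblasts to mature, gave 6.70, 6.12, 6.33, 6.11 and 6.36 at E13.5 and 6.60, 6.63, 6.53, 6.43 and 6.48 at E14.5, a difference of 0.21 ± 0.11 (SE). For both genes the stages overlapped, and the highest of the 10 arrays was replicate 1 of E13.5. Without that array, the difference was 0.01 ± 0.07 (SE) for Runx2 and 0.31 ± 0.08 (SE) for Sp7, and Sp7 was then past the threshold of the fit across all genes. Sp7 passed in 1 of the 10 fits with an array left out and in 0 of the 6 other alternatives.

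Bglap (ENSMUSG00000074483), the gene of osteocalcin, which mature osteoblasts secrete, gave 5.69, 5.34, 5.39, 5.15 and 4.98 at E13.5 and 5.19, 5.38, 5.68, 5.24 and 5.62 at E14.5. The stages overlapped widely, with a difference of 0.11 ± 0.14 (SE). Mouse has near-identical copies beside this gene, and the probes may not separate them, so the value is uncertain as a value of Bglap alone.

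Of the 10 mineralization genes, 4 were past the limma threshold (adjusted p under 0.05 over all genes), where 7.85% of all genes were. Of these, 3 were higher at E14.5 (4.36% of all genes were) and 1 was lower (3.49% of all genes were). These same 4 genes had no overlap between the arrays of E13.5 and E14.5, as did 8.84% of all genes. The median log2 difference of the set was 0.15, with 6 of 10 genes above 0, and that of all genes was -0.01. Since the set was chosen on this contrast, nothing is read from these shares.

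**Figure D2:**
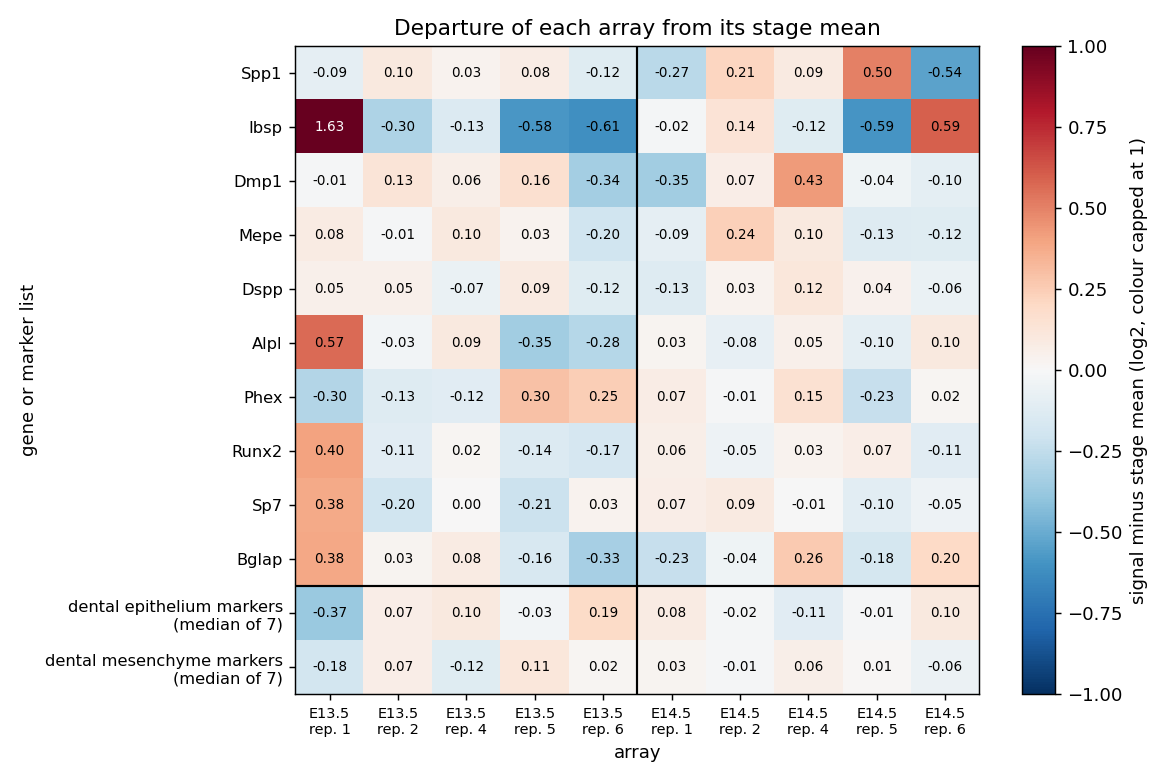
Departure of each array from the mean of its stage (log2, colour and printed value, colour capped at 1) for the 10 mineralization genes and, below the line, the median departure of 7 dental epithelium and 7 dental mesenchyme markers. The E13.5 array of replicate 1 departs upward for Ibsp (1.63), Alpl (0.57), Runx2 (0.40), Sp7 (0.38) and Bglap (0.38) and downward for the epithelial markers (-0.37).

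The E13.5 array of replicate 1 stood apart from the other 4 of its stage for several genes of the set. It was the highest E13.5 array for 5 of the 10 genes, namely Ibsp, Alpl, Runx2, Sp7 and Bglap, and it was the highest for 23.1% of all genes. At the other end, the E13.5 array of replicate 6 was the lowest of its stage for 7 of the 10 genes and for 31.3% of all genes. On the other 4 arrays, Ibsp averaged 3.81 ± 0.23, Alpl 6.25 ± 0.21, Runx2 7.23 ± 0.08, Sp7 6.23 ± 0.13 and Bglap 5.22 ± 0.19 (SD, n = 4 each). The array's lead over the nearest of them was 1.77 for Ibsp, 0.48 for Alpl, 0.38 for Runx2, 0.34 for Sp7 and 0.30 for Bglap. Spp1 was not raised there, at 3.98 against 3.95 to 4.17 on the other arrays, and Phex was at its lowest of the stage, at 5.98 against 6.14 to 6.57.

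Marker genes of the germ moved on the same array. All 7 dental epithelium markers were lowest there among the E13.5 arrays, while 22.6% of all genes were, and their median signal was 7.36 against 7.81 to 8.02 on the other arrays. The median of the 7 dental mesenchyme markers was also lowest there, at 8.47 against 8.52 to 8.86. Of 24 osteoblast regulators, 8 were highest and 3 lowest there, where 23.1% and 22.6% of all genes were. Their median departure from the stage mean was 0.04 there. On the E13.5 array of replicate 6, 10 of the 24 were highest and 1 lowest, where 18.8% and 31.3% of all genes were. Arrays of the cap stage departed too. On the E14.5 array of replicate 4, 4 of the 24 were highest and 14 lowest, where 36.1% and 26.8% of all genes were. That array was also the lowest of its stage for 4 of the 7 dental epithelium markers. Among the 24, Dlx5, a homeobox gene of osteoblasts and of the jaw mesenchyme, read 8.19 on the replicate 1 array against 7.60 to 7.76. Its partner Dlx6 read 7.41 there against 7.14 to 7.56. The part that the makeup of this pool had in the values of the mineralization genes was not tested. Leaving the array out brought the number of genes past the threshold from 4 to 5 by adding Sp7.

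**Figure D3:**
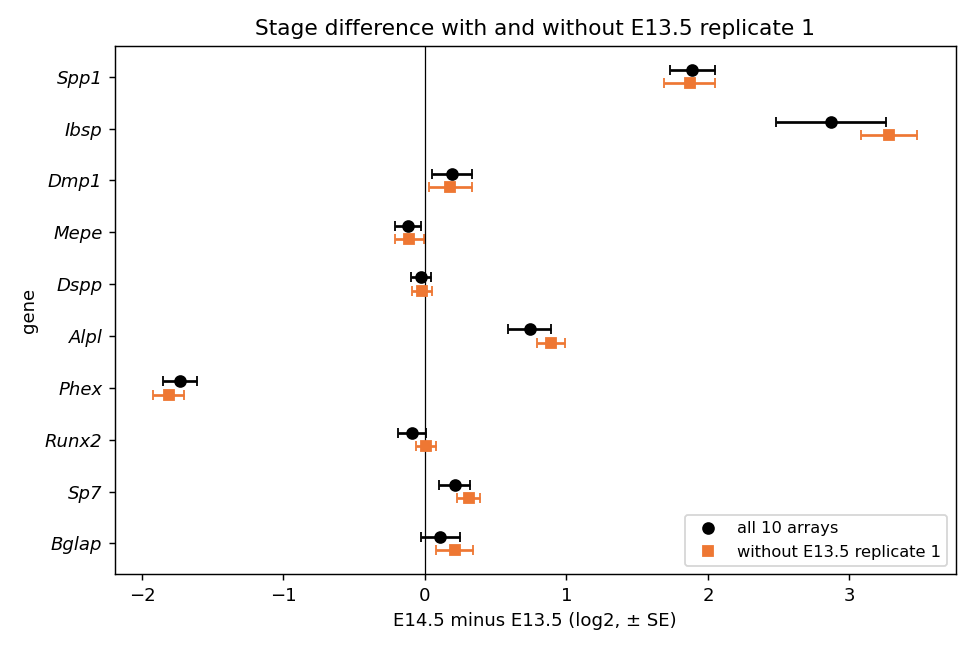
Log2 difference between the stages (E14.5 minus E13.5, horizontal axis, ± SE) of each mineralization gene with all 10 arrays (black circles) and without the E13.5 array of replicate 1 (orange squares). The difference goes from 2.87 to 3.28 for Ibsp and from 0.21 to 0.31 for Sp7, and from 1.89 to 1.87 for Spp1.

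The markers of the tooth tissues also moved between the stages. Of 7 dental mesenchyme markers, 6 were lower at E14.5 (limma), and their median signal per array lay at 7.44 to 7.53 against 8.47 to 8.86 at E13.5. Of 7 dental epithelium markers, 5 were higher, and of 12 markers of the enamel knot, the signalling centre of the cap, 8 were higher, while over all genes 4.36% were higher and 3.49% lower. The median of the enamel knot markers per array was 6.02 to 6.31 at E13.5 and 6.92 to 7.39 at E14.5. Among 3 osteoclast genes, the secreted protease gene Mmp9 was higher, while the proton pump subunit gene Tcirg1 (0.03 ± 0.06, SE) and Ostm1, needed for bone resorption (0.13 ± 0.06, SE), were not past the threshold. The marker lists were chosen with earlier results of these data known, so nothing is read from these shares. The part of these shifts in the values of the mineralization genes was not tested.

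Profiles over the 10 arrays were compared with those of 389 genes with a symbol in the study's tables, each profile centred on its own mean. The likeness was measured as the root mean square difference, and it takes in the stage difference as well as the departures of single arrays. Nearest to Spp1 were the ligand gene Wnt10a (0.34), the transcription factor gene Sp6 (0.35) and the ligand gene Shh (0.38), whose own stage differences were 1.46, 1.99 and 2.02. Nearest to Ibsp were Shh (0.84), Sp6 (0.88) and the ligand gene Fgf4 (0.92), at a greater distance. Ibsp carried the single high E13.5 array, and its stage difference of 2.87 was larger than theirs (2.02, 1.99 and 1.59). Nearest to Phex were the homeobox gene Lhx8 (0.27), the paired box gene Pax9 (0.30) and the receptor phosphatase gene Ptprz1 (0.35), with stage differences of -1.45, -1.18 and -1.16. Nearest to Runx2 were Wnt2b, Tgfb3 and Runx3, each at 0.11, and none of these 3 was past the threshold. Wnt10a, Shh and Fgf4 belong to the enamel knot markers, Sp6 to the epithelial markers, and Lhx8 and Pax9 to the mesenchyme markers. Such a likeness does not show in which cells Spp1, Ibsp or Phex was made.

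Genes that act upstream of osteoblasts were read as a list of 24, made up of ligands, receptors and transcription factors. Of these, 6 were higher at E14.5, 2 were lower and 16 did not pass, with a median difference of 0.12 and 15 of 24 above 0. Over all genes, 4.36% were higher, 3.49% were lower and 12573 of 27528 differences were above 0. This list and those that follow were also chosen with earlier results of these data known, so nothing is read from their shares. By limma, the ligand genes Wnt10b (0.88 ± 0.08, SE, adjusted p = 3.76e-05) and Bmp2 (0.81 ± 0.11, SE, adjusted p = 0.000623) rose. Another Bmp ligand, Bmp4, which is made by the bud mesenchyme, fell by limma (-0.56 ± 0.07, SE, adjusted p = 0.000596). Wnt10b, Bmp2, Bmp7 and Lef1 are also in the enamel knot list.

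Among the receptors of that list, Fgfr2 rose from 7.83 ± 0.11 to 8.38 ± 0.11 (SD, n = 5 each, limma adjusted p = 0.000946). Lrp5, a Wnt co-receptor whose loss lowers bone mass, was 0.29 ± 0.07 (SE) higher by limma (adjusted p = 0.0223). That call was lost without the E13.5 array of replicate 1, 4 or 5 or the E14.5 array of replicate 5 or 6, and also with each array centred on its median, with adjusted p up to 0.0763. Fgfr1 (0.19 ± 0.06), Fgfr3 (0.18 ± 0.07), Lrp6 (-0.14 ± 0.07) and Bmpr1a (-0.14 ± 0.07, each ± SE) did not pass.

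Of the transcription factors, Msx2, a homeobox gene of the germ and of skull bone, rose from 5.11 ± 0.14 to 5.87 ± 0.12 (SD, n = 5 each, limma adjusted p = 0.000195). Dlx6 fell from 7.35 ± 0.16 to 6.56 ± 0.08 (SD, n = 5 each, limma adjusted p = 0.000138), while its neighbour and partner Dlx5 had a difference of -0.03 ± 0.14 (SE). Dlx3, mutated in a syndrome of hair, teeth and bone, was 0.53 ± 0.12 (SE) higher by limma (adjusted p = 0.0204). Its call was lost without the E13.5 array of replicate 5 or the E14.5 array of replicate 5 or 6, and under the replicate block, with adjusted p up to 0.0618. Runx3, the relative of Runx2, had a difference of 0.02 ± 0.07 (SE), and the beta-catenin gene Ctnnb1 had 0.10 ± 0.06 (SE).

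The scaffold and the enzymes that process it were read as a list of 14, of which 4 were higher, 2 were lower and 8 did not pass, with a median difference of 0.26, where 4.36% of all genes were higher and 3.49% lower. Postn, a matrix protein of periosteum and dental mesenchyme, fell from 10.61 ± 0.12 to 10.01 ± 0.12 (SD, n = 5 each, limma adjusted p = 0.000745). Tnc, the tenascin of condensing mesenchyme, fell from 9.04 ± 0.20 to 8.52 ± 0.11 (SD, n = 5 each, limma adjusted p = 0.0069). Fam20c, the Golgi kinase that phosphorylates osteopontin and the other acidic glycoproteins, rose from 5.44 ± 0.09 to 5.92 ± 0.08 (SD, n = 5 each, limma adjusted p = 0.000891). These 3 calls held on leaving out any single array.

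The other calls of the matrix list were smaller and depended on single arrays. By limma, Col1a1, the main collagen chain of bone and dentin, was 0.32 ± 0.08 (SE) higher (adjusted p = 0.0246), a call lost without any of 6 of the 10 arrays (E13.5 replicates 1 and 5, E14.5 replicates 2, 4, 5 and 6). The small proteoglycan gene Dcn was 0.41 ± 0.11 (SE) higher (limma adjusted p = 0.036), a call lost without any of 7 arrays (E13.5 replicates 1, 2 and 5, E14.5 replicates 1, 2, 4 and 5) and under the replicate block. Itgb5, an integrin chain that binds osteopontin, was 0.26 ± 0.07 (SE) higher (limma adjusted p = 0.0297), a call lost without any of 7 arrays (E13.5 replicates 1, 4, 5 and 6, E14.5 replicates 1, 2 and 6) and with each array centred. The count of the list was 3 without the E13.5 array of replicate 5 or the E14.5 array of replicate 2. Slc13a5, the citrate transporter, had a difference of 0.43 ± 0.12 (SE, limma adjusted p = 0.0571) and passed in 6 of the 16 alternative fits. Mme, a peptidase of the same family as Phex, had a difference of -0.19 ± 0.10 (SE) and did not pass, with overlapping stages.

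**Figure D4:**
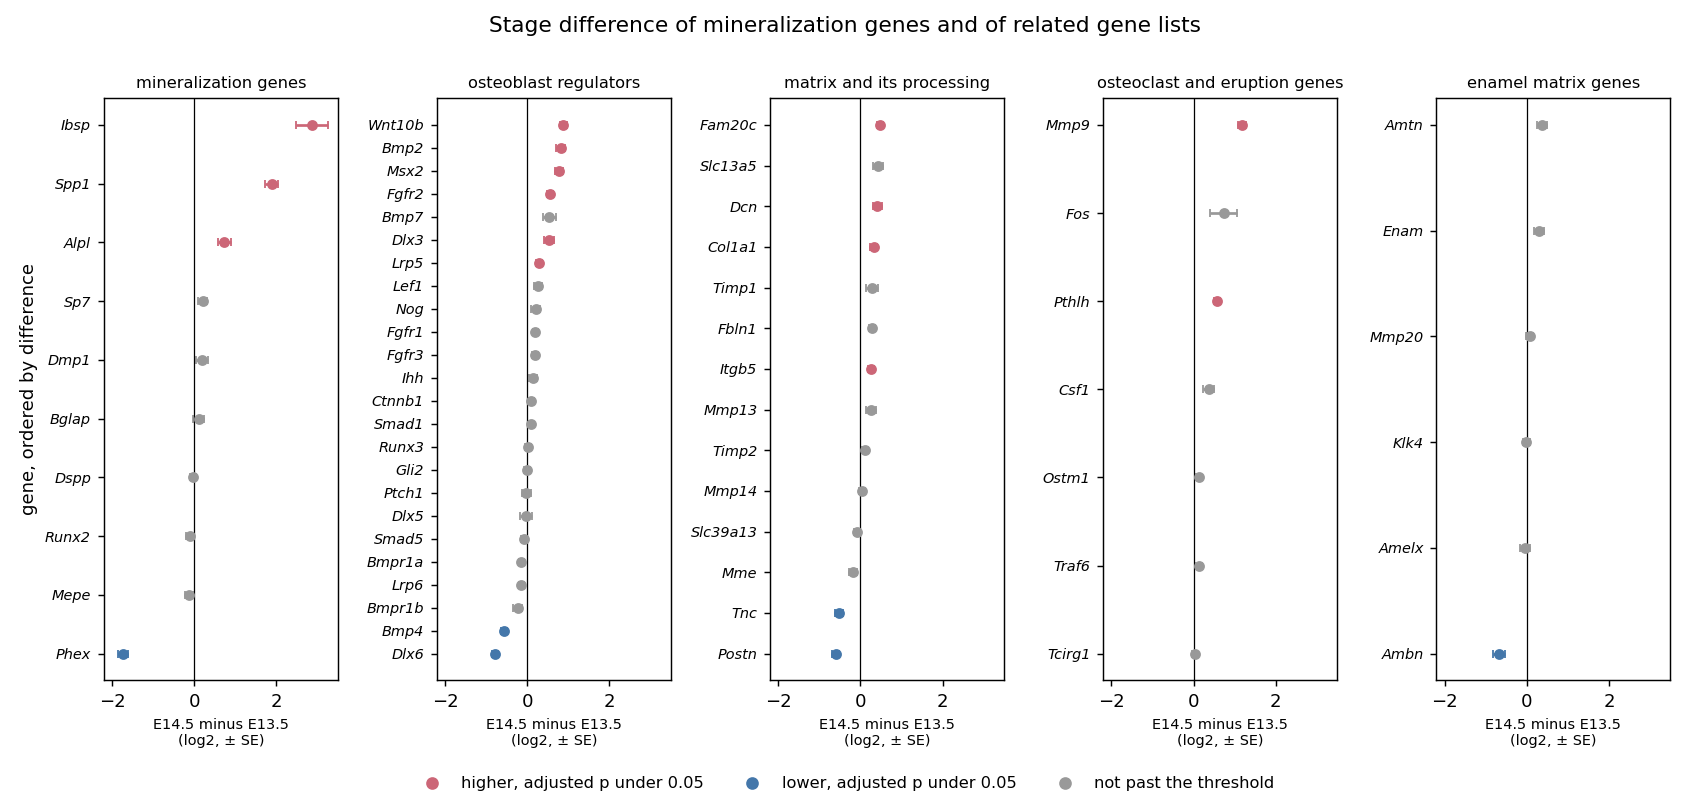
Log2 difference between the stages (E14.5 minus E13.5, horizontal axis, ± SE) of the 10 mineralization genes and of the 4 related lists, ordered by size within each panel. Red marks genes higher and blue genes lower at an adjusted p under 0.05, and grey marks the rest; the mineralization genes span -1.73 (Phex) to 2.87 (Ibsp).

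Bone is remodelled, and teeth erupt, through osteoclasts. A list of 7 osteoclast and eruption genes was read, and it also holds genes of other cells. All 7 differences were above 0, with a median of 0.37, as were 12573 of the 27528 differences over all genes. The threshold was passed by 2 of the 7, and by 7.85% of all genes. By limma, Mmp9 rose from 5.77 ± 0.23 to 6.95 ± 0.09 (SD, n = 5 each, adjusted p = 3.56e-05). Pthlh, the gene of a secreted peptide of the dental epithelium needed for eruption, rose from 6.27 ± 0.11 to 6.84 ± 0.11 (SD, n = 5 each, limma adjusted p = 0.000669). Csf1, the growth factor of osteoclast precursors, had a difference of 0.37 ± 0.13 (SE), and Fos, a transcription factor they need, had 0.73 ± 0.32 (SE), neither past the threshold with all arrays. Fos passed with array weights and without the E13.5 array of replicate 1, on which it read 7.57 against 5.51 to 6.27 on the other E13.5 arrays.

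Enamel matrix genes, the epithelial counterpart of the dentin genes, numbered 6. Of these, Ambn, the gene of ameloblastin, was past the threshold and lower at E14.5. It went from 6.62 ± 0.28 to 5.93 ± 0.25 (SD, n = 5 each, limma adjusted p = 0.0137), with overlapping arrays. Amelx, the main enamel protein gene (-0.04 ± 0.13), Enam (0.30 ± 0.12), Amtn (0.38 ± 0.12) and the enamel proteases Klk4 (-0.01 ± 0.09) and Mmp20 (0.07 ± 0.08, each ± SE) did not pass, where 7.85% of all genes did. Amtn passed under quantile normalization, with array weights, under the replicate block and without the E13.5 array of replicate 2, and Enam passed under quantile normalization. The median difference of the list was 0.03.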

How the data were processed

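Total RNA of pooled molar germs was hybridised to exon arrays. The authors normalized the signals with aroma.affymetrix and a Brainarray custom probe grouping (version 23), and deposited 1 value per Ensembl gene and array. The deposited values ran from 1.30 to 12.83 and were read as log2 signals. The log base, background correction and summary model are not given in the sources used here. Neither detection calls nor scanner files with their scan dates were used here, so batches of scanning and signal over background were not examined.

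The stages were compared by limma (version 3.58.1, R 4.3.3) on all 27528 genes and 10 arrays, as E14.5 minus E13.5, with lmFit, eBayes and two-sided p-values and without covariates. The p-values were adjusted over the whole table by Benjamini-Hochberg, and genes under 0.05 were called. The step was tested on simulated data and recovered 88.5% of 200 genes changed by 1 on the log2 scale and 62% of 200 changed by 0.5. The simulated noise was independent for each gene and array, so departures of a whole array were not part of it. Alternatives were quantile normalization, centring on array medians, leaving out the dimmest 25% of genes, array weights, a trended and robust variance prior, the replicate number as a block, and each array left out in turn. The methods call the samples biological replicates, and no 2 arrays held identical values.

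The members and lists were chosen with earlier results of these data known. Named were all members, list genes that passed or whose role is described, the 3 most similar profiles to Spp1, Ibsp, Phex and Runx2, and the neighbours of the chromosome 5 cluster. Symbols came from the study's lists (399 genes, 395 of them in the table). Motif positions count back from the first transcribed base, with Python 3.11.15.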

Additional observations from a re-analysis of the deposited data

Results flagged for a closer look

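In 5 sets of 5 arrays, 1 array lay farther from the rest than Dixon's criterion for 5 values allows. With 148 sets examined and about 1 in 20 marked by chance, 7.4 would be expected. Ibsp read 5.85 on the E13.5 array of replicate 1, against 3.60 to 4.08 on the other E13.5 arrays. On the same array Dlx5 read 8.19, against 7.60 to 7.76, and Wnt2b, a gene with a profile near that of Runx2, read 5.85, against 5.43 to 5.51. Smad1, a transducer of Bmp signals, read 6.86 on the E13.5 array of replicate 6, against 6.67 to 6.70. Fgfr1 read 8.14 on the E14.5 array of replicate 6, against 7.97 to 8.01.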

How the results depend on the processing

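On leaving out single arrays the stage differences of Spp1, Ibsp, Alpl and Phex, which were chosen on this contrast, ranged over 1.76 to 2.02, 2.72 to 3.28, 0.66 to 0.89 and -1.81 to -1.66, and the number of mineralization genes called over 4 to 5. With array weights, 3911 genes were called in place of 2162, and 1479 to 2554 on leaving out single arrays. The matrix list then had 3 to 5 calls in place of 6, the osteoblast regulators 6 to 10 in place of 8, the osteoclast and eruption list 2 to 3 in place of 2, and the enamel list 1 to 2 in place of 1. Array weights gave 4 osteoclast and eruption calls and 2 enamel calls, quantile normalization gave 3 enamel calls, and the replicate block gave 2. The cause of these shifts was not tested. Among the other named genes, 33 calls were gained and 37 lost over the alternatives, and no called difference changed sign in any of them.

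The methods do not say whether equal replicate numbers pair the samples. The correlations of their deviations across genes were 0.39, -0.08, 0.51, 0.03 and 0.28 for replicates 1, 2, 4, 5 and 6. Only replicates 1 and 4 correlated best with their own number. With 5 arrays at each stage these correlations cannot settle whether the samples were paired. The replicate block gave 2077 called genes and the same 4 mineralization genes.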
